A study of Mus musculus with 6 samples.

Results

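Genes of lipid uptake, transport and fatty acid use were examined in the 2 kinds of endothelial cell of the mouse small intestine, vascular endothelial cells (VECs) of blood vessels and lymphatic endothelial cells (LECs) of lymphatic vessels. The group holds 50 genes chosen by name, from the lipases of the vessel wall to the enzymes that burn fatty acids in mitochondria, out of 22911 genes named on the array. They were read by 71 of its 56605 probes, matched through the RefSeq accession of each probe. Cells without CD45 and with CD31 were sorted from small intestine of female mice, VECs as CD90-negative and LECs as CD90-positive cells. RNA of 3 VEC samples (VEC_2, VEC_3 and VEC_4) and 3 LEC samples (LEC_6, LEC_7 and LEC_8) was hybridized to Agilent 1-color arrays, with no treatment or transgene named for either group. The sources used here give neither strain nor age for the mice behind these arrays, and they do not say whether samples came from separate or pooled mice. The p-values therefore measure the spread between these samples, which may be technical. The description of the LEC samples names VECs, and the grouping follows their titles and source names.

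Fat absorbed in the small intestine leaves enterocytes as chylomicrons, lipoprotein particles that enter the lymphatic capillaries of the villi, the lacteals, while blood capillaries receive shorter fatty acids and serve the tissue. In blood vessels of muscle and fat, lipoprotein lipase is held on the endothelial surface by GPIHBP1 and splits triglycerides, and fatty acids then cross the endothelium with the help of CD36, fatty acid transport proteins and fatty acid binding proteins. Inside the cell, acyl-CoA synthetases activate fatty acids, which are stored in droplets or oxidized in mitochondria.

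Values are normalized log2 signals, the log2 intensity minus the 75th percentile of the array, so that 0 is that percentile. Signals of different probes cannot be set against each other, and every comparison of a gene is of the same probe between arrays. The summed signals of marker lists add different probes, so that bright probes weigh most in them. To be tested, a probe had to exceed background clearly (the scanner software's flag for well above background) on the 3 arrays of VECs, of LECs or of both. This left 33776 probes for limma with Benjamini-Hochberg adjustment, of which 64.0% passed. Where a gene had several such probes, the brightest on average stands for it, and passing the test means an adjusted p under 0.05. Between 30928 and 35507 probes per array were well above background, no spot was saturated, and replicates correlated with r from 0.990 to 0.994 over the tested probes. All 8 lymphatic marker genes were higher in LECs, with Prox1 at a log2 difference of 5.37. All 9 blood vascular ones were lower, with Ly6c1 at -4.91. These lists were chosen with earlier results of these data known. The lymphatic list includes Thy1, the gene of the CD90 used in the sort, so the counts are no independent check of the labels. Of 7 pan-endothelial genes 6 were lower in LECs, and Tie1 did not pass. Their log2 differences ran from -4.75 for Esam to -0.48 for Erg, with Pecam1 at -1.42. In sorted bulk RNA, fewer cells of a type and less RNA per cell cannot be told apart.

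Most of these lipid genes were read in both kinds of cell, at levels that often differed. Of the 50 genes, 42 were tested and 8 were not, because neither group cleared background on its 3 arrays. Among the 42, 15 passed toward LECs, 17 toward VECs and 10 not at all. That is 76.2% past the threshold, beside 66.9% of all 14971 tested genes (34.9% higher and 32.0% lower), so the share called is near the background. Differences over 2-fold were found for 18 genes, 6 higher and 12 lower in LECs, or 42.9% of those tested, beside 25.1% of all genes (12.0% higher and 13.1% lower). Among the 6, Slc27a2 and Fabp7 entered the test only through the LEC arrays. With all 6 arrays required to clear background, 13 genes were higher, 4 of them over 2-fold, and 17 lower, 12 of them over 2-fold. The median absolute log2 difference was 0.66 for the lipid genes and 0.46 for all genes, and the median signed difference was -0.01 and 0.02. In 34 of the 42 genes the LEC arrays did not overlap the VEC arrays, with 16 of the 42 wholly higher in LECs, beside 39.1% of all genes, and 18 wholly lower, beside 35.9%. The differences of over 2-fold toward LECs were those of 3 genes of lipolysis at the vessel wall, 2 fatty acid binding proteins and 1 fatty acid transport protein. Those toward VECs were of 3 transcription factors and of 2 genes each among intracellular lipases, receptors, fatty acid binding proteins and cholesterol exporters and their relatives, with 1 fatty acid transport protein, while enzymes of fatty acid activation and oxidation differed by less than 2-fold. Without scaling between arrays the median over all tested probes moved from -0.03 to 0.20, and 16 lipid genes were higher and 13 lower. Over all tested probes 12922 were then higher and 6916 lower in place of 10537 and 11066. Of the LEC arrays, LEC_6 alone shared a slide row with the VEC arrays, and with the row as a block the difference is that of LEC_6 from the VEC mean. All 18 genes over 2-fold kept their call in that fit, and 13 genes in all were higher and 15 lower.

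**Figure D1:**
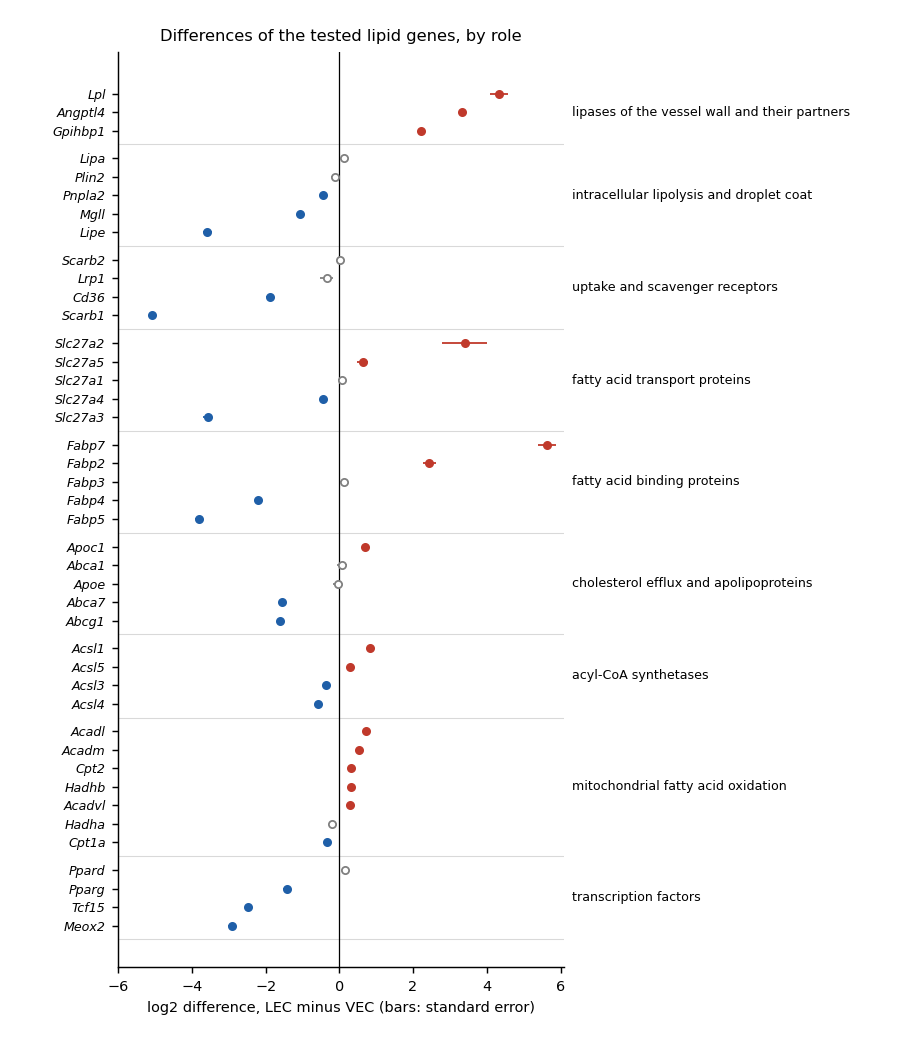
Log2 difference of LEC minus VEC for the 42 tested lipid genes, grouped by role, with the standard error from limma as bars (3 arrays per group). Filled red points passed the test and were higher in LECs, filled blue points passed and were lower, and open grey points did not pass. The lowest difference is -5.10 for Scarb1. The points of Fabp7 and Slc27a2 are measured against VEC arrays not well above background, with bounds of at least 20.4-fold and at least 3.34-fold higher. These bounds depend on the background correction. With another one, normexp, the ratios lay below them, at 3.995-fold for Fabp7 and 1.61-fold for Slc27a2. The differences of acyl-CoA synthetases and oxidation enzymes stay within 1 of 0.

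Of the 5 transcription factors, 4 were tested, with 3 lower in LECs and none higher, beside 32.0% and 34.9% of all genes. Meox2 and Tcf15 encode 2 factors that form a heterodimer in capillary endothelium of heart and skeletal muscle and are known there for raising fatty acid uptake genes. Meox2 read 1.29, 1.19 and 1.34 in VECs and -1.45, -1.80 and -1.66 in LECs. Tcf15 read 3.80, 3.83 and 3.61 in VECs and 1.41, 1.17 and 1.25 in LECs. Every VEC array lay above every LEC array for both genes, by far more than the spread within a group. The log2 difference was -2.91 ± 0.10 (SE, n = 3 per group; adjusted p = 4.44e-06, limma) for Meox2, 7.51-fold lower in LECs, and -2.47 ± 0.10 (adjusted p = 6.27e-06) for Tcf15, 5.55-fold lower.

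Pparg, the nuclear receptor that senses fatty acids and is known for inducing Cd36 and Fabp4, read 1.89, 2.03 and 1.76 in VECs and 0.53, 0.46 and 0.39 in LECs. The groups did not overlap, and the difference of -1.43 ± 0.09 was a 2.70-fold lower signal in LECs (adjusted p = 4.26e-05, limma). Ppard, the more widely expressed receptor of the family, read 1.51 to 1.62 in VECs and 1.65 to 1.81 in LECs, a difference of 0.15 ± 0.07 that did not pass (adjusted p = 0.123), although without scaling between arrays it did (0.37, adjusted p = 0.0160). Ppara, the receptor that drives fatty acid oxidation in liver, was well above background on 1 array, LEC_6 at -2.65, and was not tested. LEC_7 and LEC_8 read -5.04 and -4.60 for it, close to the VEC arrays at -5.48 to -4.71.

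PPARs bind DNA with their partner RXR at repeats of the hexamer AGGTCA, which other nuclear receptors also use. The 250 bases before the annotated gene starts were therefore searched on both strands, in the promoter sequences of RefSeq for GRCm38.p6. These cover 38 of the 50 genes with 49 starts, and 10 of the 18 genes that differed over 2-fold. Those without an entry were Lpl, Gpihbp1, Lipg, Scarb1, Fabp4, Fabp5, Slc27a5, Slc27a6, Abcg1, Apoc1, Angptl4 and Tcf15. AGGTCA or its complement was found at 11 of the 49 starts, 22.4%, beside 14.0% of all 32851 starts. The direct repeat of the hexamer with 1 base between its copies, which by its letters also counts as the hexamer, was found at 0 of the 49 and at 0.0335% of all. The homeobox core TAATTA, a type of site that MEOX2-like proteins recognize, was found at 0 of the 49 and 4.84% of all. The E-box CANNTG, bound by basic helix-loop-helix factors such as TCF15, was at 73.5% of the 49 and 66.2% of all, and the GC box GGGCGG at 59.2% and 32.7%. These matches describe letters in a window, and binding was not measured.

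Among the 10 genes over 2-fold with an entry, 4 hold the hexamer, 2 of 7 lower in LECs and 2 of 3 higher. Of all 27025 genes with an entry 4260 hold it. The windows of the 4 are shown because they include Pparg itself and Cd36, lower in LECs, beside Slc27a2 and Fabp7, higher in LECs. The hexamer thus stood before genes of both directions. Capitals mark it, as AGGTCA or on the other strand as TGACCT. The windows are, in GRCm38.p6, chr2:126552774-126553023 on the plus strand for Slc27a2, chr5:17835897-17836146 on the minus strand for Cd36, chr6:115360894-115361143 and chr6:115362099-115362348 on the plus strand for 2 of the 3 starts of Pparg, and chr10:57784673-57784922 on the plus strand for Fabp7. Each is written 5′ to 3′ along its gene and ends at the base before the start. The first capital lies 220 bases before the start in Slc27a2, 228 in Cd36, 28 and 9 in Pparg and 171 in Fabp7.
Slc27a2: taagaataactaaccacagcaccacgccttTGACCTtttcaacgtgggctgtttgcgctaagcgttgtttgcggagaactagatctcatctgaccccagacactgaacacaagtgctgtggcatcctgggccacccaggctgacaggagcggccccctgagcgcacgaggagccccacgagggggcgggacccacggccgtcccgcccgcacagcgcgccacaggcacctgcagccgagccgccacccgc
Cd36: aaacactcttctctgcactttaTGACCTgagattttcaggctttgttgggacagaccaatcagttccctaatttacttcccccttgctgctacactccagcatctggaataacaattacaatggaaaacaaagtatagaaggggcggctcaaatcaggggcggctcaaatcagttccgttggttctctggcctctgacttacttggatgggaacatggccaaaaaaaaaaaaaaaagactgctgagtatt
Pparg, first start: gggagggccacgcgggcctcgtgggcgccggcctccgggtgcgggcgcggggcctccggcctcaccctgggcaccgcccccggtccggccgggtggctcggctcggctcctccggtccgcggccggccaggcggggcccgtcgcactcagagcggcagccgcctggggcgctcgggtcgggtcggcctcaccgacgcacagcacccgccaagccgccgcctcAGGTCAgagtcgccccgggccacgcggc
Pparg, second start: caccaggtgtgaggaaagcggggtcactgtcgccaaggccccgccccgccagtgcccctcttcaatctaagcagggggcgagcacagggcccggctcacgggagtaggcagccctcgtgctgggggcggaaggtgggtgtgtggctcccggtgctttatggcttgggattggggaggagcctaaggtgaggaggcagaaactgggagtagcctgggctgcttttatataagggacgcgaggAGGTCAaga
Fabp7: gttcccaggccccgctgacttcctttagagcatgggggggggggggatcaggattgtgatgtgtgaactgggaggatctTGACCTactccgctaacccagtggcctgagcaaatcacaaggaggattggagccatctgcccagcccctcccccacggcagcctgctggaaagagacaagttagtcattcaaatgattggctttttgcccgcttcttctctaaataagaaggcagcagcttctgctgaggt

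Genes of lipolysis at the vessel wall were higher in LECs. Of 4 genes, 3 were tested and all 3 were higher, each by over 2-fold, beside 12.0% of all genes. Lpl encodes lipoprotein lipase, the enzyme that frees fatty acids from triglycerides of circulating lipoproteins. Its probe read -1.45, -1.87 and -0.91 in VECs and 2.89, 3.02 and 2.85 in LECs. The LEC arrays lay close together and far above the highest VEC array. The log2 difference was 4.33 ± 0.24, 20.1-fold (adjusted p = 2.37e-05, limma), and Lpl stood 243rd of 14971 genes ordered by difference toward LECs. As the mean of its probes the ratio was 30.2-fold, which takes in dimmer probes that give only bounds. These other probes of Lpl gave bounds in the same direction. One was at least 26.3-fold brighter in LECs, with 1 of 3 VEC arrays well above background, and the other at least 9.88-fold, with 0 of 3. In these bounds, used wherever some array of the dim group failed to clear background, that group is taken at the higher of its own signal and the lowest signal well above background of each array. They hold for the background subtraction used here, and with normexp background correction some ratios lay below them.

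Gpihbp1, which carries lipoprotein lipase across endothelial cells and anchors it on their surface, read 3.39, 3.57 and 3.47 in VECs and 5.61, 5.81 and 5.66 in LECs. Both groups were well above background on every array and did not overlap. It was 4.65-fold higher in LECs (log2 difference 2.22 ± 0.08, adjusted p = 5.38e-06, limma). Angptl4, a secreted inhibitor of lipoprotein lipase, read 1.34, 1.32 and 1.46 in VECs and 4.54, 4.86 and 4.74 in LECs. The lipase, its anchor and its inhibitor were thus all higher in LECs, the inhibitor by 10.1-fold (3.34 ± 0.10, adjusted p = 2.36e-06). Lipg, the endothelial lipase that prefers phospholipids of high-density lipoproteins, was well above background on none of the 6 arrays with either of its probes.

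The 9 other tested regulators of lipoprotein lipase gave a mixed picture. Beside 34.9% higher and 32.0% lower of all genes, 2 of them were higher in LECs, 4 lower and 3 not past the threshold. Their largest differences lay with the proprotein convertases, proteases that cut lipases and ANGPTL proteins among many substrates. Pcsk6 read 1.37, 1.36 and 1.11 in VECs and 6.78, 6.51 and 6.66 in LECs, 41.4-fold higher (5.37 ± 0.11, adjusted p = 6.77e-07, limma). Pcsk5 read 1.19, 1.13 and 1.09 in VECs and -3.13, -2.77 and -3.27 in LECs, 18.3-fold lower (-4.19 ± 0.14, adjusted p = 2.99e-06), or 10.3-fold lower as the mean of its probes and 8.39-fold with normexp background correction. These related proteases thus went opposite ways, with no overlap of the arrays for either. Furin was 1.48-fold lower in LECs (adjusted p = 0.00241) and Sel1l, which helps the lipase leave the endoplasmic reticulum, 1.24-fold higher (adjusted p = 0.00896), a call lost with the slide row as a block (adjusted p = 0.0888).

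Of the 5 genes of intracellular lipolysis and the droplet coat, 3 were lower in LECs, 2 did not pass and none was higher. Over all genes 32.0% were lower and 34.9% higher. Lipe, the hormone-sensitive lipase, read 0.97, 0.999 and 0.77 in VECs and -2.77, -2.77 and -2.47 in LECs. Each LEC array lay far below each VEC array. The difference was -3.58 ± 0.11, 11.96-fold lower in LECs (adjusted p = 2.82e-06, limma), and 6.23-fold lower with normexp background correction. Mgll, the monoacylglycerol lipase that completes the breakdown of triglycerides and also degrades an endocannabinoid, read 6.74, 6.82 and 6.68 in VECs and 5.55, 5.78 and 5.68 in LECs. It was 2.11-fold lower (-1.08 ± 0.08, adjusted p = 0.000100), and a probe for another of its transcripts gave -1.06 ± 0.16.

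Pnpla2, the lipase of the first step of triglyceride breakdown, was 1.37-fold lower in LECs (-0.45 ± 0.08, adjusted p = 0.00284, limma), with VEC arrays at 4.17 to 4.27 and LEC arrays at 3.66 to 3.86. Without scaling between arrays this call was lost (adjusted p = 0.128). Lipa, the lysosomal acid lipase, read 1.12 to 1.34 in VECs and 1.22 to 1.42 in LECs and did not pass. Plin2, the coat protein of lipid droplets in most cells, read 3.64 to 3.84 and 3.46 to 3.83, and its probes gave -0.12 and 0.09 with adjusted p of 0.404 and 0.506.

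Among 26 other tested genes of triglyceride synthesis and lipid droplets, 9 were higher in LECs and 11 lower. Of all genes, 34.9% were higher and 32.0% lower. G0s2, known as an inhibitor of the Pnpla2 lipase, was at least 26.0-fold higher in LECs (adjusted p = 7.54e-06, limma), with VEC arrays at -4.96, -4.61 and -5.37, none well above background, and LEC arrays at -0.14, 0.16 and -0.12. With normexp background correction the ratio was 6.20-fold. The inhibitor was thus above background in LECs alone, and its target differed by 1.37-fold in the other direction. Mttp, which loads lipid onto apolipoprotein B, was at least 3.76-fold higher (adjusted p = 0.000745) with 1 of 3 VEC arrays well above background, and 1.67-fold with normexp. Dgat2, an enzyme of the last step of triglyceride synthesis, was 3.96-fold lower (adjusted p = 0.000251), or 2.33-fold with normexp, and Hilpda, a droplet protein that also inhibits the Pnpla2 lipase, 2.35-fold lower (adjusted p = 0.00269).

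**Figure D2:**
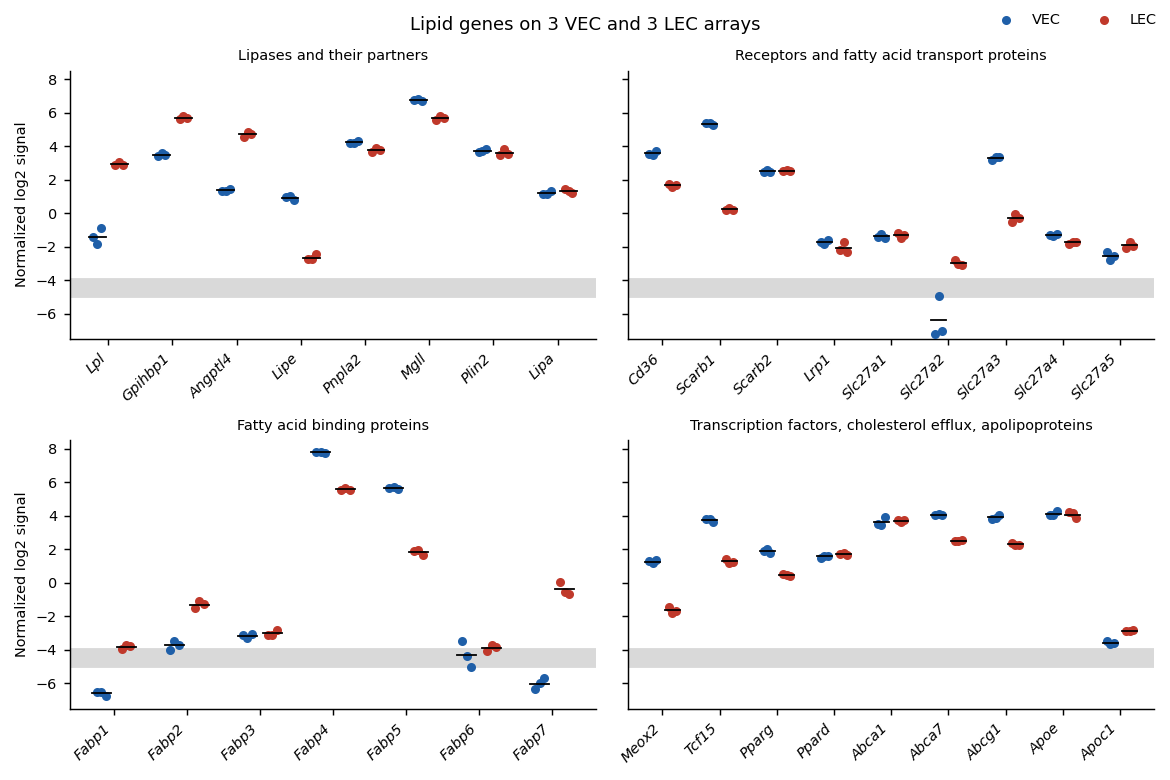
Normalized log2 signal (y axis, log2 intensity minus the 75th percentile of the array) of the lipid genes named on the x axes, with a blue point for each VEC array, a red point for each LEC array and a black line at the group mean. The grey band runs from the lowest to the highest of the 6 arrays' lowest signals well above background. The VEC points of Slc27a2 and Fabp7 lie below the upper edge of the band, and those of Scarb1, Slc27a3, Fabp4, Fabp5, Meox2 and Tcf15 lie far above their LEC points.

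Of 4 tested uptake and scavenger receptors among the 50 genes, 2 were lower in LECs, 2 did not pass and none was higher. Over all genes 32.0% were lower and 34.9% higher. Scarb1 encodes the receptor SR-BI, which takes up cholesterol from high-density lipoproteins and carries lipoproteins across endothelium. It read 5.37, 5.38 and 5.26 in VECs and 0.19, 0.32 and 0.21 in LECs. The arrays of a group lay close together, and the groups were far apart. The difference of -5.10 ± 0.07 was 34.2-fold (adjusted p = 4.88e-07, limma) and placed Scarb1 85th of 14971 genes ordered toward VECs. A probe for another transcript of Scarb1 was 18.7-fold lower in LECs (-4.23 ± 0.19, adjusted p = 1.08e-05).

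Cd36, the fatty acid receptor of capillary endothelium and of macrophages and fat cells, read 3.53, 3.47 and 3.68 in VECs and 1.76, 1.54 and 1.70 in LECs. It was 3.71-fold lower in LECs without overlap (-1.89 ± 0.09, adjusted p = 1.36e-05, limma). Scarb2, a lysosomal relative of both, differed by 0.03 ± 0.06 and did not pass (adjusted p = 0.720). Lrp1, a large receptor for lipoprotein remnants, read -1.72, -1.88 and -1.62 in VECs and -2.18, -1.74 and -2.34 in LECs. LEC_7 lay among the VEC arrays there. The difference of -0.35 ± 0.17 did not pass (adjusted p = 0.118), and without LEC_7 it was -0.52 (adjusted p = 0.0124).

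Of 9 other tested lipoprotein receptors and their partners, 3 were higher in LECs and 5 lower, beside 34.9% and 32.0% of all genes. Vldlr, the receptor for very low-density lipoproteins, which works with lipoprotein lipase in fat and muscle, read -3.19, -3.60 and -2.59 in VECs and 4.99, 4.75 and 4.91 in LECs. It thus rose beside Lpl, by 258-fold, or 115-fold as the mean of its probes and 101-fold with normexp background correction. Sorl1, a sorting receptor that binds lipoprotein lipase, was at least 3.02-fold higher (adjusted p = 0.0162, limma), with 2 of 3 VEC arrays well above background. That call was lost without LEC_7 or VEC_2 (adjusted p = 0.0542 and 0.0502), in a fit blocked by slide row (0.0949) and in the gene-by-gene test of the study's methods (0.0562), and the measured ratio of 3.77-fold was 1.5004-fold with normexp. Lower in LECs were Lsr, a receptor for triglyceride-rich lipoproteins, by 2.68-fold (adjusted p = 2.64e-05) and Mylip, a ligase that marks lipoprotein receptors for breakdown, by 2.35-fold (adjusted p = 0.000305).

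The fatty acid transport proteins of the Slc27a family, which move fatty acids inward and activate very long-chain ones, split between the groups. Of 6 genes, 5 were tested, with 2 higher in LECs, 2 lower and 1 not past the threshold. Over all genes 34.9% were higher and 32.0% lower. Slc27a3 read 3.18, 3.32 and 3.33 in VECs and -0.54, -0.05 and -0.31 in LECs. This VEC-side member was 11.95-fold lower in LECs (-3.58 ± 0.13, adjusted p = 5.07e-06, limma). Slc27a2, best known from liver and kidney, read -7.20, -4.93 and -7.07 in VECs and -2.82, -3.06 and -3.10 in LECs. No VEC array was well above background, and the gene was at least 3.34-fold higher in LECs (adjusted p = 0.00355). Its measured ratio was 10.6-fold, 17.6-fold without VEC_3 and, below that bound, 1.61-fold with normexp background correction.

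Slc27a4, the family member known from enterocytes, was 1.37-fold lower in LECs (-0.46 ± 0.07, adjusted p = 0.00160, limma), and the call was lost without scaling (adjusted p = 0.149). Slc27a5, a bile acid ligase of liver, was 1.54-fold higher (0.63 ± 0.15, adjusted p = 0.0113). Its VEC arrays read -2.34, -2.78 and -2.54 and its LEC arrays -2.08, -1.71 and -1.99, and the call was lost with the slide row as a block (adjusted p = 0.119). Slc27a1, a transporter of muscle and fat, read -1.50 to -1.24 and -1.47 to -1.19 and did not pass. Slc27a6 was well above background on none of the arrays.

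Fatty acid binding proteins are small carriers of fatty acids in the cytosol. Of 5 tested genes 2 were higher in LECs and 2 lower, beside 34.9% and 32.0% of all genes, and 1 did not pass. Fabp4, a carrier of fat cells, macrophages and capillary endothelium, read 7.83, 7.84 and 7.76 in VECs and 5.57, 5.69 and 5.56 in LECs. Fabp5, often found beside it, read 5.64, 5.72 and 5.61 in VECs and 1.89, 1.96 and 1.66 in LECs. Both were lower in LECs on every array, Fabp4 by 4.61-fold (-2.21 ± 0.07, adjusted p = 2.37e-06, limma) and Fabp5 by 14.1-fold (-3.82 ± 0.10, adjusted p = 1.28e-06). The other probe of Fabp4 gave 5.25-fold.

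Fabp7, the carrier known from brain and glia, went the other way. It read -6.36, -5.99 and -5.69 in VECs, where no array was well above background, and 0.04, -0.53 and -0.68 in LECs. Fabp7 was at least 20.4-fold higher in LECs (adjusted p = 9.21e-06, limma), while the measured ratio was 49.3-fold and, below the bound, 3.995-fold with normexp background correction. Fabp3, the heart form, read -3.29 to -3.04 in VECs and -3.13 to -2.83 in LECs and did not pass (0.13 ± 0.11, adjusted p = 0.356), whereas its dimmer probe was 1.42-fold higher (adjusted p = 0.0401).

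The carriers of absorptive epithelium were dim. Fabp2, the intestinal form, read -4.004, -3.49 and -3.71 in VECs and -1.52, -1.09 and -1.27 in LECs. It cleared background on all 6 arrays without overlap and 5.43-fold higher in LECs (2.44 ± 0.17, adjusted p = 6.08e-05, limma), or 2.36-fold with normexp. Fabp1, the liver form that enterocytes also hold, read -6.52, -6.51 and -6.74 in VECs and -3.94, -3.73 and -3.77 in LECs, above background on 0 and 2 arrays, and was not tested. Fabp6, the ileal bile acid carrier, was above background on 1 VEC and 2 LEC arrays with overlapping values.

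Markers of enterocytes went both ways. Of 16 enterocyte and epithelial markers, 7 were tested. Beside 34.9% higher and 32.0% lower of all genes, 2 of these were higher in LECs, 2 lower and 3 not past the threshold. The summed signal of the 16 markers, as a multiple of the 75th percentile of each array, was 6.50 to 10.2 in VECs and 12.2 to 16.4 in LECs. Anpep, an aminopeptidase of enterocytes and other cells that was 2.45-fold higher in LECs (adjusted p = 0.000754, limma), carried most of that sum, and without it the sum was 2.24 to 4.60 in VECs and 2.19 to 2.82 in LECs. Rbp2, a retinol carrier of enterocytes, was above background on the 3 LEC arrays and on 0 VEC arrays, while Vil1 was lower in LECs. The digestive enzymes Alpi and Sis and the apolipoprotein Apoa4 were above background on no array, and Epcam was above it on 1 array of each group. The part of epithelial RNA in Fabp1, Fabp2 and Mttp was not tested.

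Cholesterol export differed in part. ABCA1 and ABCG1 pass cholesterol to apolipoproteins and high-density lipoproteins, and ABCA7 is a relative that moves phospholipids. Abcg1 read 3.83, 3.88 and 4.05 in VECs and 2.39, 2.23 and 2.26 in LECs, 3.07-fold lower (-1.62 ± 0.09, adjusted p = 2.08e-05, limma). Abca7 read 4.07, 4.14 and 4.03 in VECs and 2.50, 2.51 and 2.55 in LECs. The values of Abca7 were tight within each group, and both of its probes were lower in LECs, by 2.96-fold (-1.56 ± 0.06, adjusted p = 6.09e-06) and 3.01-fold. Abca1 read 3.49, 3.47 and 3.91 in VECs and 3.78, 3.61 and 3.73 in LECs, which overlapped. Its probes gave 0.08 ± 0.13 and -0.13 ± 0.10 with adjusted p of 0.618 and 0.279.

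Apoe, the apolipoprotein that many cells secrete for lipoprotein uptake, read 4.05, 4.04 and 4.26 in VECs and 4.21, 4.16 and 3.86 in LECs. The groups overlapped, and its probes gave -0.04 ± 0.12 and -0.01 ± 0.11 (adjusted p = 0.765 and 0.952, limma). Apoc1, a small apolipoprotein that inhibits lipolysis, was dim at -3.63 to -3.45 in VECs and -2.90 to -2.80 in LECs. It was 1.63-fold higher in LECs (0.70 ± 0.07, adjusted p = 0.000385), a call that normexp removed (adjusted p = 0.0654). Apob and Apoa1, the main proteins of chylomicrons and of high-density lipoproteins, were well above background on none of the arrays.

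Of 12 other lipid-sensing transcription regulators tested, 5 were higher in LECs and 4 lower, beside 34.9% and 32.0% of all genes. Nr1h3, the oxysterol receptor LXRα, which is known for inducing Abca1, Abcg1 and Mylip, read 1.29, 1.33 and 1.56 in VECs and 4.78, 4.99 and 4.80 in LECs. It was 11.0-fold higher in LECs (3.46 ± 0.10, adjusted p = 2.25e-06, limma), while Abcg1 and Mylip were lower there and Abca1 did not pass. Ppargc1b, a coactivator of mitochondrial genes, was 13.0-fold higher (adjusted p = 7.69e-05) and 4.35-fold with normexp. Its relative Ppargc1a read -0.99, -3.52 and -3.97 in VECs and was above background on 0 LEC arrays. VEC_2 stood apart for Ppargc1a, which was at least 3.17-fold lower in LECs. Its measured ratio was 4.46-fold (adjusted p = 0.0488) and, below that bound, 2.36-fold without VEC_2 (adjusted p = 0.00635). Its call was lost without LEC_6, LEC_7, LEC_8 or VEC_3, at adjusted p of 0.119, 0.114, 0.0861 and 0.0602. It was also lost with dim signals raised to the lowest signal above background (0.114), the slide row as a block (0.161), the gene-by-gene test of the methods (0.119), no filter on dim probes (0.101), quantile normalization (0.0534) and the mean of its probes (0.0501). Rxra, the partner of the PPARs, was 1.97-fold lower (adjusted p = 2.75e-05).

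The acyl-CoA synthetases, which activate fatty acids by joining them to coenzyme A, differed by less than 2-fold. Of 5 genes, 4 were tested and all passed, beside 66.9% of all genes, with 2 in each direction. Acsl1, the form of fat, liver and heart, read 0.44, 0.41 and 0.41 in VECs and 1.27, 1.12 and 1.34 in LECs, 1.77-fold higher (0.82 ± 0.08, adjusted p = 0.000221, limma). Acsl5, a form abundant in intestine, was 1.21-fold higher (0.28 ± 0.07, adjusted p = 0.0110). Acsl4, which prefers arachidonic acid, read 2.53, 2.51 and 2.46 in VECs and 1.94, 1.90 and 1.90 in LECs. It was lower in LECs with all 3 of its probes, from 1.503-fold to 1.90-fold. Acsl3 was 1.29-fold lower (-0.37 ± 0.09, adjusted p = 0.0145), a call lost when VEC_2 or VEC_3 was left out (adjusted p = 0.0535 and 0.0529). It was also lost with the slide row as a block (0.0811), without scaling (-0.14, adjusted p = 0.421) and with the mean of its probes (-0.24, adjusted p = 0.383), where its second probe gave -0.11 ± 0.37. Acsl6, a form of brain, was above background on 1 array, LEC_6, and was not tested.

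**Figure D3:**
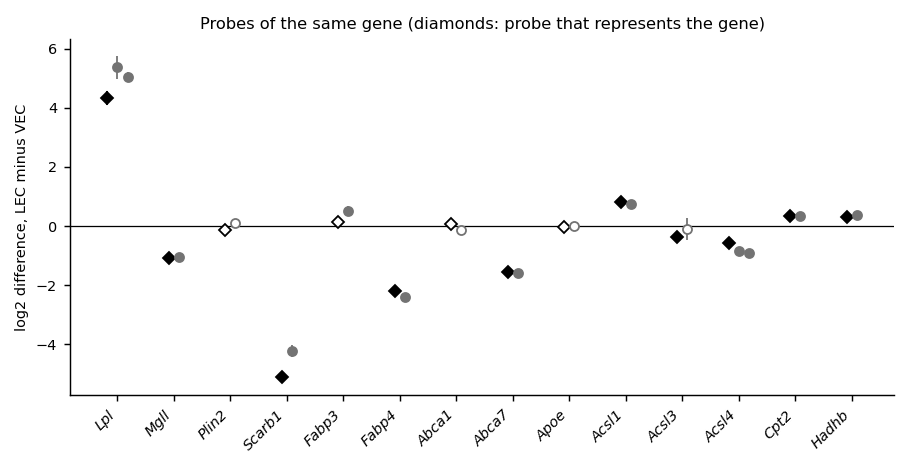
Log2 difference of LEC minus VEC, with the standard error, for each tested probe of the 14 lipid genes that have several. Diamonds mark the probe that represents the gene, circles its other probes, and filled symbols passed the test. The probes of 12 genes have the same sign, those of Plin2 and Abca1 lie on both sides of 0 without passing, and for Fabp3 and Acsl3 1 probe passed and the other did not.

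Enzymes of mitochondrial fatty acid oxidation were modestly higher in LECs. Of the 7 genes, 5 passed toward LECs and 1 toward VECs, beside 34.9% and 32.0% of all genes, and 1 missed the threshold. Acadl, Acadm and Acadvl encode the dehydrogenases that start each round of oxidation for long, medium and very long chains. Acadl read 1.76, 1.69 and 1.93 in VECs and 2.53, 2.51 and 2.49 in LECs, 1.65-fold higher (0.72 ± 0.08, adjusted p = 0.000463, limma). Acadm was 1.45-fold higher (0.53 ± 0.07, adjusted p = 0.00115) and Acadvl 1.23-fold (0.30 ± 0.07, adjusted p = 0.00856), each with every LEC array above every VEC array.

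Cpt1a, the gate of fatty acid entry into mitochondria, went toward VECs. It read 3.16, 3.22 and 3.35 in VECs and 2.94, 2.82 and 2.92 in LECs, 1.27-fold lower (-0.35 ± 0.08, adjusted p = 0.00809, limma). Neither the unscaled signals (adjusted p = 0.478) nor a fit blocked by slide row (adjusted p = 0.0742) kept that call. Cpt2, which follows it at the inner membrane, was 1.25-fold higher in LECs (0.33 ± 0.10, adjusted p = 0.0301). The Cpt2 call was lost when LEC_7, LEC_8, VEC_2 or VEC_3 was left out, at adjusted p of 0.0764, 0.0755, 0.0901 and 0.0978, and in a fit blocked by slide row (0.18, adjusted p = 0.276), the gene-by-gene test of the methods (0.0569) and no filter on dim probes (0.0831). Hadha and Hadhb encode the 2 subunits of the trifunctional protein of long-chain oxidation. Hadhb was 1.25-fold higher in LECs (0.32 ± 0.07, adjusted p = 0.00603), while Hadha at -0.19 ± 0.07 did not pass (adjusted p = 0.0586) and passed without LEC_7 (-0.25, adjusted p = 0.0240), and was 0.03 without scaling.

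Of 24 other tested oxidation enzymes, 14 were higher in LECs, 3 lower and 7 not past the threshold. With the 7 members, 19 of 31 oxidation genes were higher and 4 lower, with a median log2 difference of 0.24, beside 34.9% and 32.0% of all genes and a median of 0.02. Of those 19, 17 were higher by less than 2-fold. Cpt1c, a relative of Cpt1a known from brain, was counted among these genes by family, and its part in oxidation was not tested. It read -2.33, -2.27 and -2.62 in VECs and -0.11, -0.25 and -0.14 in LECs, 4.70-fold higher (adjusted p = 1.48e-05, limma) and 2.84-fold with normexp. Hsd17b4, an enzyme of peroxisomal oxidation, was 2.23-fold higher (adjusted p = 0.000117). Acads, the dehydrogenase of short chains, was 2.61-fold lower (adjusted p = 0.000171) and Decr1, needed for unsaturated fatty acids, 1.63-fold lower (adjusted p = 0.000977).

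**Figure D4:**
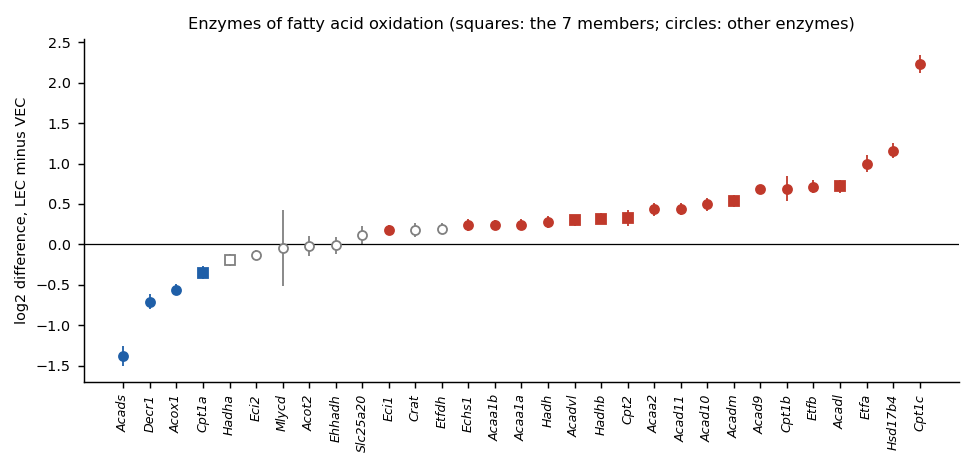
Log2 difference of LEC minus VEC, with the standard error, for 31 tested genes of fatty acid oxidation, ordered by difference. Squares are the 7 members and circles the other enzymes. Red symbols passed and were higher in LECs (19), blue symbols passed and were lower (4) and open symbols did not pass (8). Most differences lie between 0 and 1, and Cpt1c at 2.23 and Acads at -1.38 are the ends of the row.

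Markers of other cells that these sorts could hold were read beside the lipid genes. Macrophages also express Lpl and Apoe. The summed signal of 14 macrophage and myeloid markers was 81.3 to 86.8 in VECs and 70.6 to 76.0 in LECs. Of 12 tested genes 7 were higher in LECs and 4 lower, beside 34.9% and 32.0% of all genes. Itgam alone gave 74.0 to 79.8 and 64.3 to 69.2 of the summed signal. Without Itgam the sum was 6.97 to 7.34 in VECs and 6.34 to 6.92 in LECs. Higher in LECs were Aif1 by 7.20-fold, Adgre1 by at least 3.76-fold, Lyz2 by at least 3.25-fold, C1qa by at least 3.97-fold, C1qb, C1qc and Tyrobp, while Mertk was 5.38-fold lower and Cd68 2.23-fold lower (limma). Ptprc, the gene of CD45, was above background on 2 arrays of each group. Of the markers of adipocytes, cells that also hold Lpl, Lipe, Cd36, Fabp4 and Pparg, Plin1 and Cidec were above background on no array and Adipoq on 1 VEC array. Their sum was 1.01 to 1.11 in VECs and 1.07 to 1.18 in LECs. Of the 3 tested, Adrb3 was at least 2.65-fold higher in LECs, Lep 1.22-fold higher and Gpd1 2.24-fold lower. The 7 fibroblast markers, of cells that also carry CD90, summed to 0.909 to 1.56 in VECs and 2.19 to 2.97 in LECs. Of 4 tested, 3 were higher in LECs, with Dcn the furthest at 6.33-fold, 1 did not pass and none was lower. Smooth muscle markers summed to 39.4 to 47.7 in VECs and 27.7 to 36.9 in LECs, and erythroid ones to 26.1 to 63.9 and 0.659 to 3.64. Of 8 tested smooth muscle markers 3 were lower in LECs and 5 did not pass, and all 4 tested erythroid ones were lower. The part of these cells in the lipid genes was not tested.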

How the data were processed

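Per the labels, the authors sorted up to 10000 cells per sample and labeled amplified RNA with Cy3. The deposited intensities are the signals that Agilent Feature Extraction 12.0.3.1 gave after its own background subtraction, unscaled between arrays. The deposited log2 table equals log2 intensity minus 1 constant per array (within 0.05 for 99.986% to 99.995% of probes, medians -3.19 to -3.13) and served as an alternative. Here, outlier spots (97 to 122 per array) were set missing, spots of a probe averaged (300 probes had 10) and the 75th percentile of each array subtracted. limma 3.58.1 in R 4.3.3 (lmFit, eBayes, two-sided) was run on all 33776 tested probes. The fit was also tested on simulated data in which, unlike here, only a small part of the probes was changed. That simulation therefore does not give the rate of false calls in these data. Symbols came from RefSeq accessions without versions (GRCm38.p6, names only), which named 58.3% of probes. The number of arrays, 3 per group, limits the precision.

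The 50 genes, the other pathway lists and the marker lists were chosen with earlier results of these data known. All 50 are accounted for, and from each pathway list at most the 2 largest passing differences per direction are named. Normexp (offset 50) used median signals, since mean signals were not among the columns used here. The alternatives were normexp, other scalings, other filters, a floor for dim signals, an intensity trend, outlier spots kept, the log2 table, the methods' gene-by-gene one-way ANOVA, the slide row as a block, the mean of a gene's probes and each replicate left out.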

Additional observations from a re-analysis of the deposited data

How the results depend on the processing

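Of the 32 lipid genes past the threshold, 25 kept their direction and their call under all 19 alternatives where they could be fitted, and no call of a named gene turned its direction. Without scaling between arrays 6916 probes were lower in LECs in place of 11066. Leaving out each array gave 14 to 15 lipid genes higher and 16 to 19 lower, with 6 to 7 higher and 12 lower by over 2-fold. It gave 30 to 38 other lipid genes higher and 31 to 34 lower. Over the probes tested in each of these fits, 9295 to 10431 were higher and 9591 to 10981 lower. The 7 lipid genes that lost a call under some setting were Acsl3, Cpt2, Pnpla2, Slc27a4, Cpt1a, Slc27a5 and Apoc1. Of these, without scaling 4 were lost, with the slide row as a block 4, with normexp 1, and with the one-way ANOVA, with no filter on dim probes and with the mean of the probes 1 each. The cause was not tested. With no filter on dim probes 8 lipid genes were over 2-fold higher in place of 6, where 8 genes that are not tested otherwise entered. Slc27a2 and Fabp7 could not be fitted where all 6 arrays had to be above background. No paired analysis was possible because the groups share no replicate number. Fold changes of dim probes depend on the background correction, among them those of Slc27a2, Fabp2 and Fabp7.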

Other observations

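Genes of fatty acid synthesis and desaturation were no part of the comparison above. Of 18 tested genes, 6 were higher in LECs, 8 lower and 4 did not pass, beside 34.9% higher and 32.0% lower of all genes. The median log2 difference was -0.11, and 0.02 over all genes. Elovl2, which lengthens polyunsaturated fatty acids, read -5.71, -6.54 and -5.71 in VECs, none well above background, and -1.86, -1.72 and -1.80 in LECs. LECs were thus at least 7.68-fold brighter (adjusted p = 2.56e-05, limma) and, below that bound, 2.41-fold with normexp background correction. Elovl7, another elongase, was 3.63-fold higher (adjusted p = 6.92e-06). Thrsp, a protein that goes with lipid synthesis in liver and fat, read 4.32, 4.35 and 4.69 in VECs and 1.08, 2.04 and 1.53 in LECs, 7.48-fold lower (adjusted p = 0.000161). Scd1, the desaturase that makes oleic acid, was at least 3.06-fold lower (adjusted p = 0.000530), with 1 of 3 LEC arrays well above background, and 1.66-fold lower with normexp.

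Over the 98 tested genes of the 6 other lipid lists together, 39 were higher in LECs and 35 lower, with a median log2 difference of 0.11 and a median absolute difference of 0.69. Over all genes 34.9% were higher and 32.0% lower, with medians of 0.02 and 0.46.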
